A study of Mus musculus with 4 samples.

Results

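Genes linked to regulatory (Treg), type 2 helper (Th2) and follicular helper (Tfh) T cells were examined for captured methylated DNA. The 8 genes were chosen by name, namely Nrp1, Tnfrsf9 and Socs2 for Treg cells, Epas1 and Plcd1 for Th2 cells, and Tox, Tox2 and Sh2d1a for Tfh cells. Each of the 8 genes had 1 region, so the members are 8 of the 10000 regions in the deposited table. DNA bound by a methyl-CpG-binding protein was sequenced from 4 sorted populations of CD3+CD4+ T cells of female Balb/c mice, with 1 library per population. Th17 cells were CD45RB low and secreted IL-17A but not interferon gamma. Treg cells were sorted as CD25++, and Th1 cells were CD45RB low and secreted interferon gamma but not IL-17A. Naive cells were CD45RB high. All cells came from spleen and lymph nodes and had 3 h of PMA (10 ng/ml) and ionomycin (500 ng/ml), which Treg cells received after their sort and the others before it. CD25 is also carried by activated T cells, and whether any population pooled several mice is not stated in the labels. Neither a Th2 nor a Tfh population was sorted, so those genes were read in cells of other lineages.

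DNA methylation is added to cytosines in CpG pairs, and lineage genes of T cells are known to lose it at regulatory sites, often inside introns, when the lineage is set. Treg cells are held by the transcription factor Foxp3 and restrain immune responses. Th2 cells make interleukins against parasites under Gata3, and Tfh cells help B cells in germinal centres under Bcl6. A capture library counts fragments, so a region's read number depends on the share of methylated copies, on its CpG pairs and on its length, which cannot be told apart here.

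The deposited values are reads multiplied by a constant for each library. One read was worth 0.352 in Treg, 1.68 in Th1 and 0.996 in naive cells, and the reads in all 10000 regions were 74571, 19548 and 34277 in the same order. The Treg library is thus the most precise and the Th1 library, with a median of 2 reads per region, the least. Th17 was listed at 0 in every region, members included, and the worth of 1 Th17 read is unknown, so a Th17 value of 0 in a member says nothing particular about that gene. The intervals below are exact Poisson intervals at 95%, or exact Clopper-Pearson intervals for the split of reads between 2 libraries, and cover counting error only. Foxp3, Il2ra, Ctla4 and Ikzf2, which define Treg cells, had 0 regions in the table. Nor was there a region for the Th1 genes Ifng, Tbx21 and Cxcr3 or the naive genes Ccr7, Lef1 and Tcf7, so these 3 labels could not be checked against their genes.

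By place, 7 of the 8 member regions were intronic and 1, that of Sh2d1a, was in exon 4. Intronic regions make up 78.7% of the table and exonic ones 16.6%, so the members' places followed the table. No member region was a promoter, a class that holds 4.77% of the table. The regions were 148 to 380 bp long, with 8 to 16 reads over the 3 libraries, against a median of 13 reads for the table. Their positions are given in mouse build mm9. Intron numbers and sequence are not given here, because the table does not number introns and no mm9 genome was used.

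In the Treg genes, every Treg value lay below its naive value, as it did in all 8 members and in 63.4% of all regions. When the 3 libraries were rescaled to the same sum over the table (equal table totals), it did so in 6 members, not in Epas1 and Tox, and in 48.8% of all regions. Nrp1 encodes neuropilin-1, a coreceptor for semaphorins and vascular endothelial growth factor that marks many thymus-derived Treg cells in the mouse. Its intronic region (chromosome 8, 130999463 to 130999637, 175 bp) had 5 reads in Treg, 0 in Th1 and 5 in naive cells. The values were 1.76 in Treg (interval 0.572 to 4.11), 0 in Th1 (0 to 6.20) and 4.98 in naive (1.62 to 11.6). As a simpler limit for 0 reads, 3 Th1 reads are worth 5.04. Nrp1 was the only member without a Th1 read, and 12.3% of all regions had none. The log2 ratio of Treg over naive, with 0.5 added to both values as in all ratios of single regions here, was -1.28. No ratio to Th1 is read for Nrp1, since the naive and Treg values both lie under what 0 Th1 reads allow.

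Tnfrsf9 encodes 4-1BB, a costimulatory receptor induced on activated T cells and carried by Treg cells. Its intronic region (chromosome 4, 150297495 to 150297798, 304 bp) had 6 reads in Treg, 2 in Th1 and 5 in naive cells. The values were 2.11 in Treg (0.776 to 4.60), 3.36 in Th1 (0.407 to 12.1) and 4.98 in naive (1.62 to 11.6). The ratio of Treg over naive was -1.07 and that of Th1 over naive -0.51 on the log2 scale, so Th1 lay between the other two and overlapped both.

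Socs2 encodes a suppressor of cytokine signalling that acts on the JAK-STAT pathway. Its intronic region (chromosome 10, 94868560 to 94868783, 224 bp) had the fewest reads of the members, with 3 in Treg, 1 in Th1 and 4 in naive cells. The values were 1.06 in Treg (0.218 to 3.09), 1.68 in Th1 (0.0426 to 9.37) and 3.98 in naive (1.09 to 10.2). Both log2 ratios to naive were negative, -1.53 for Treg and -1.04 for Th1, and the intervals of the 3 values overlapped.

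**Figure D1:**
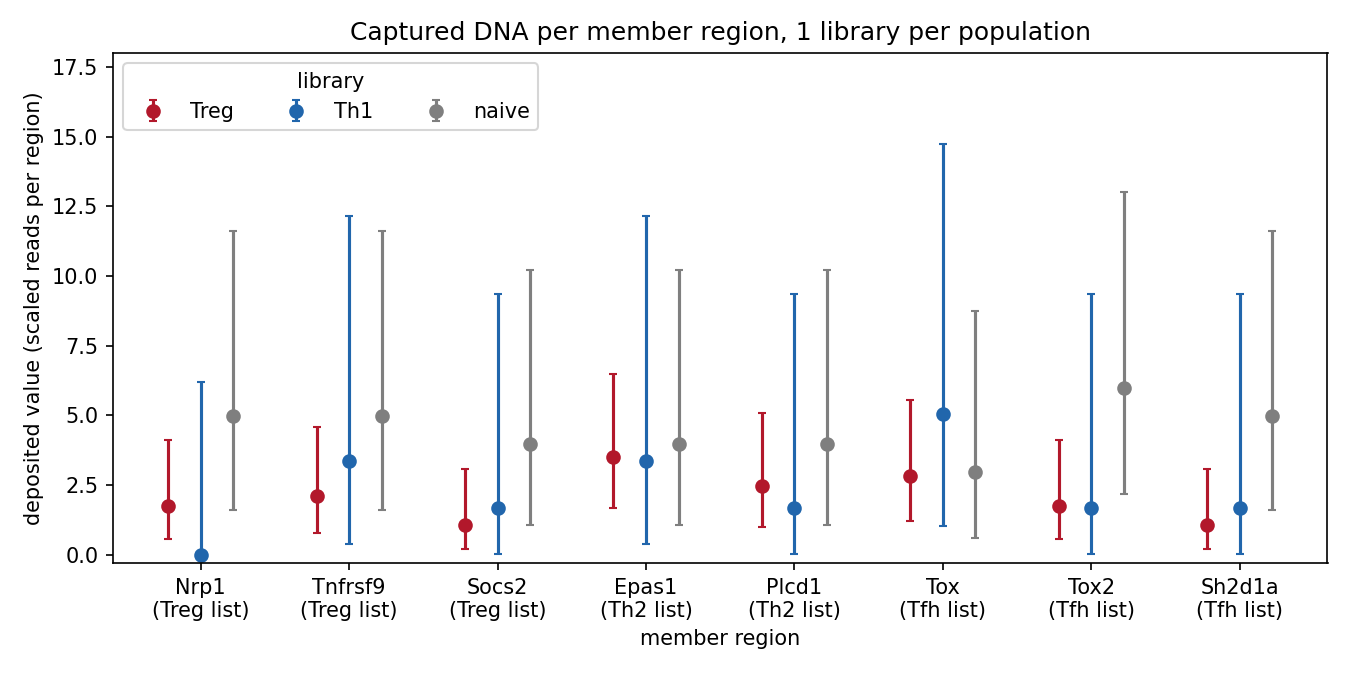
Deposited value, in scaled reads per region, of each of the 8 member regions in the Treg, Th1 and naive libraries, with exact Poisson 95% intervals from the reads as bars (1 library each; Th17 is listed at 0 throughout and not drawn). On the deposited scaling the naive point is the highest of the 3 in every gene but Tox (at equal table totals, but Tox and Epas1), and the bars of the 3 libraries overlap in all 8 genes.

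Of the Th2 genes, Epas1 had values close to each other in the 3 libraries and Plcd1 had a single Th1 read. Epas1 encodes HIF-2 alpha, a transcription factor that is stabilised at low oxygen. Its intronic region (chromosome 17, 87221386 to 87221765, 380 bp) had the most reads of the members, with 10 in Treg, 2 in Th1 and 4 in naive cells. The values were 3.52 in Treg (1.69 to 6.48), 3.36 in Th1 (0.407 to 12.1) and 3.98 in naive (1.09 to 10.2), nearly level, and the log2 ratios to naive were -0.16 for Treg, or 0.18 at equal table totals, and -0.22 for Th1. Plcd1 encodes a phospholipase C, which splits a membrane phosphoinositide into second messengers. Its intronic region (chromosome 9, 118998809 to 118998997, 189 bp) had 7 reads in Treg, 1 in Th1 and 4 in naive cells. The values were 2.47 in Treg (0.992 to 5.08), 1.68 in Th1 (0.0426 to 9.37) and 3.98 in naive (1.09 to 10.2). The log2 ratio to naive was -0.60 for Treg and -1.04 for Th1, the second resting on a single Th1 read.

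The values of the Tfh genes did not follow 1 order over the 3 libraries, and no difference between these genes was tested. Tox and Tox2 encode related HMG-box transcription factors: Tox is needed for CD4 T cell development in the mouse, and Tox2 acts in the Tfh programme. The Tox intron (chromosome 4, 6894129 to 6894369, 241 bp) had 8 reads in Treg, 3 in Th1 and 3 in naive cells. Its values were 2.82 in Treg (1.22 to 5.56), 5.04 in Th1 (1.04 to 14.7) and 2.99 in naive (0.616 to 8.73). Tox was the only member with its highest value in Th1, at a log2 ratio of 0.67 over naive, while Treg over naive was -0.07, or 0.25 at equal table totals.

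The Tox2 intron (chromosome 2, 163067767 to 163068034, 268 bp) had 5 reads in Treg, 1 in Th1 and 6 in naive cells. Its values were 1.76 in Treg (0.572 to 4.11), 1.68 in Th1 (0.0426 to 9.37) and 5.98 in naive (2.19 to 13.0), the highest naive value among the members. Treg and Th1 both lay below naive, at log2 ratios of -1.52 and -1.57, the second resting on 1 Th1 read (interval -7.35 to 1.21).

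Sh2d1a encodes SAP, the adaptor of SLAM-family receptors that T cells need to help B cells in germinal centres. It lies on the X chromosome, of which 1 copy is inactive in each cell of a female, and reads from both copies are counted together. Its region in exon 4 (chromosome X, 39876503 to 39876650, 148 bp) was the shortest of the members and had 3 reads in Treg, 1 in Th1 and 5 in naive cells. The values were 1.06 in Treg (0.218 to 3.09), 1.68 in Th1 (0.0426 to 9.37) and 4.98 in naive (1.62 to 11.6). The log2 ratio of Treg over naive, -1.82, was the lowest of the 8 members, and that of Th1 over naive was -1.33.

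**Figure D2:**
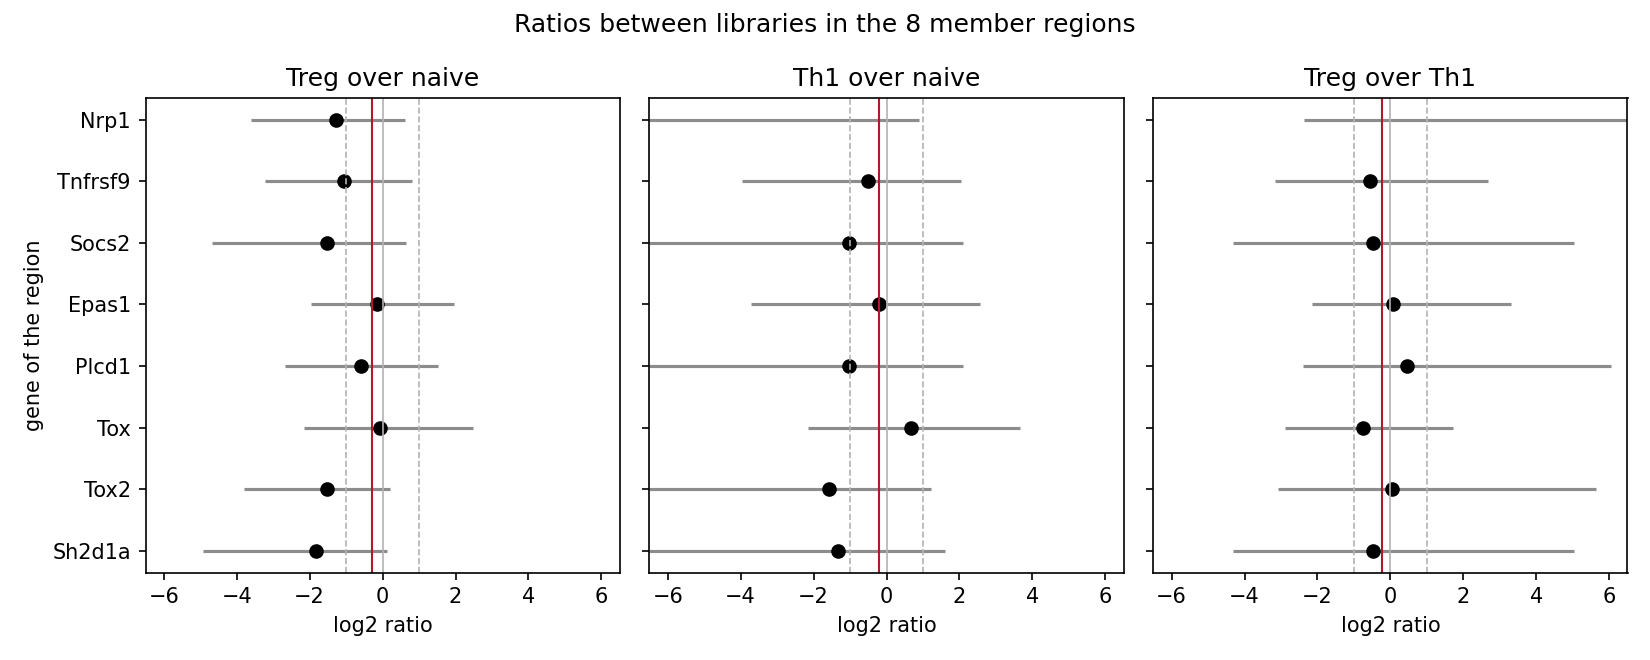
Log2 ratio of the deposited values, with 0.5 added to both, for Treg over naive, Th1 over naive and Treg over Th1 in each member region (points; none for Nrp1 to Th1, which had 0 reads). Grey bars are exact Clopper-Pearson 95% intervals from the reads without the added 0.5 and are drawn only as far as the axis, dashed lines mark a 2-fold ratio and the red line the median of all 10000 regions; every bar crosses 0.

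A ratio was called lower or higher when it was at least 2-fold. For Treg against naive, 5 of the 8 members were lower (Nrp1, Tnfrsf9, Socs2, Tox2 and Sh2d1a) and 0 higher, where 22.2% of all regions were lower and 8.33% higher. The median ratio was -1.17 in the members and -0.29 in the table. At equal table totals 3 members were lower (Socs2, Tox2 and Sh2d1a) and 0 higher, beside 12.3% and 15.2% of all regions. For Th1 against naive, 4 of the 7 members with a Th1 read were lower (Socs2, Plcd1, Tox2 and Sh2d1a), each on 1 Th1 read, and 0 were higher. Of all regions read in both libraries 19.4% were lower. At equal table totals 2 were lower (Tox2 and Sh2d1a), beside 10.5% of these regions. Nrp1, with 0 Th1 reads, also passes the rule, as a 0 does through the added 0.5, and is not read as lower; with such regions counted, 5 of 8 members and 29.0% of all regions were lower and 19.4% higher. The median over the 8 members was -1.04 and over the table -0.19, or -0.77 and 0.15 with unread regions set at 3 reads. For Treg against Th1, 0 members with a Th1 read were higher, beside 5.61% of the regions read in both, and 0 were lower. With unread regions counted, Nrp1 passes as higher on its 0 Th1 reads, beside 17.0% of all regions higher and 21.0% lower, or 22.6% and 15.2% at equal table totals. The first and second comparisons share the naive library, so a high naive count in a region moves both. Among members read in all 3 libraries, Socs2, Tox2 and Sh2d1a were lower in both, as were 8.80% of such regions (11.2% of all regions, Nrp1 among them). Naive had the highest value of the 3 libraries in 7 of 8 members and in 42.7% of all regions, or in 6 of 8 and 34.7% at equal table totals.

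No difference in a single member passed a test adjusted over the table. The exact interval of the ratio, which is wider than the limits of the test below, spanned 0 for every member in every pair. For Sh2d1a it ran from -4.92 to 0.13 and for Tox2 from -3.81 to 0.21, Treg over naive. An exact two-sided binomial test on the reads, which compares 2 libraries and not 2 cell types, with Benjamini-Hochberg adjustment over all 10000 regions, passed 0 of 8 members in each of the 3 pairs. For Th1 against naive this 0 was fixed by depth, since no split of a member's reads could pass after adjustment here. The lowest adjusted p was 0.529, for Sh2d1a and Tox2 in Treg against naive, with unadjusted p of 0.0329 and 0.0422 by the same exact test. The test took the deposited scaling as level, at which the whole table stood at a log2 ratio of -0.38 for Treg over naive. No test at equal table totals is given here. Over the table, Treg against naive passed 1 region (0.0100%) as lower in Treg and 0 as higher after adjustment, and the other 2 pairs passed 0. At an unadjusted p under 0.05 the exact test counted 8.08% of regions as lower and 0.320% as higher in Treg than in naive cells, with Sh2d1a and Tox2 among the lower. For Th1 against naive it counted 0 members, beside 0.160% of regions lower and 1.37% higher. For Treg against Th1 it also counted 0 members, beside 5.01% lower and 0 higher. At the members' read numbers no split of reads could pass as lower in Th1 than in naive cells. Nor could any split pass as higher in Treg than in Th1 cells. The counts of 0 members in these directions were thus fixed by depth. As higher in Treg than in naive cells only Epas1 could pass, and only with all its reads in Treg. That direction was thus nearly closed to the members, so their lack of higher calls there is not read as a direction.

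**Figure D3:**
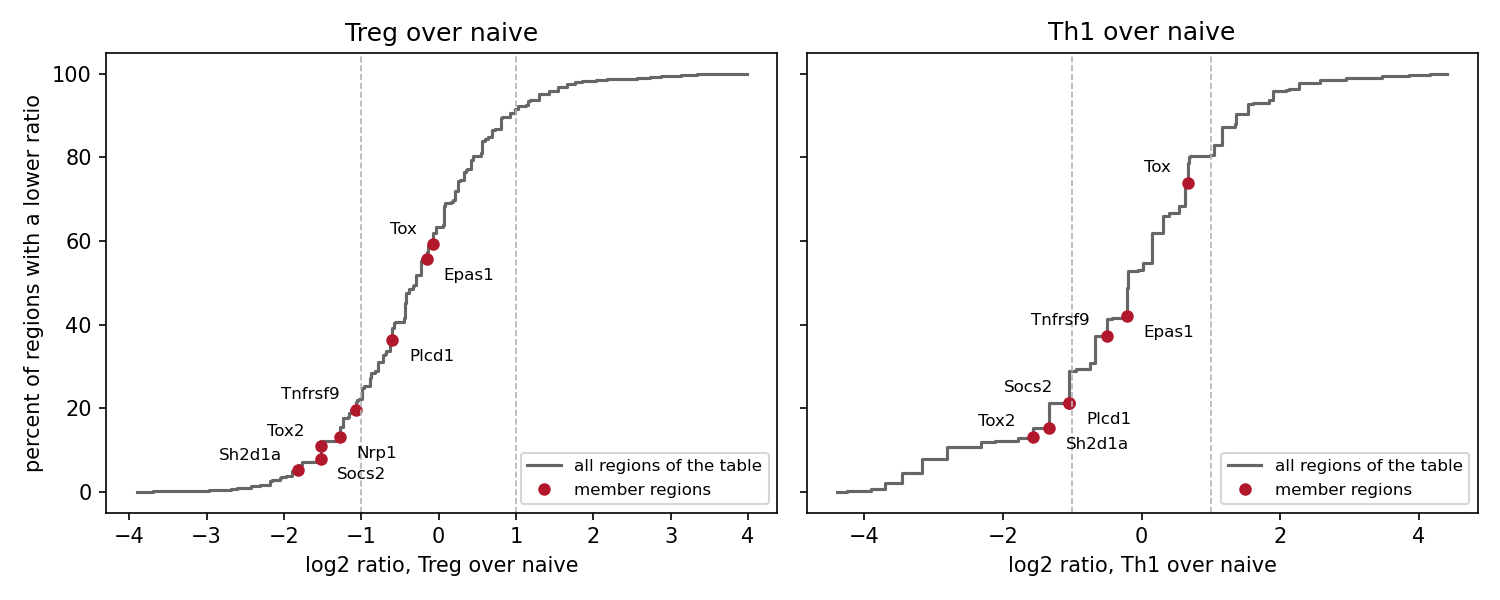
Percent of all 10000 regions with a lower log2 ratio (vertical axis) against that ratio (horizontal axis), for Treg over naive and Th1 over naive, with the member regions as red points (Plcd1 and Socs2 coincide in the Th1 panel; Nrp1, unread in Th1, is left out there). For Treg over naive, Sh2d1a, with 5.09% of regions below it, is the lowest member and Tox, with 59.2%, the highest.

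The sums by lineage hold the 8 members only, without Itgae, Il1rl1 and Pou2af1, which are linked to Treg, Th2 and Tfh cells in that order. Itgae and Il1rl1 lay below naive in Treg and Th1. Pou2af1 lay above it, at log2 ratios of 0.25 for Treg and 2.09 for Th1, unlike the Tfh sum. Summed by lineage, the Treg genes had a mean value of 1.64 per region in Treg cells (14 reads, 0.899 to 2.76), 1.68 in Th1 cells (3 reads, 0.347 to 4.91) and 4.65 in naive cells (14 reads, 2.54 to 7.80). The log2 ratio of Treg over naive was -1.50 (-2.68 to -0.32), and that of Th1 over naive was -1.47 (-3.91 to 0.37). Over the whole table the Treg sum lay below the naive sum by a log2 ratio of -0.38. Relative to that, the Treg genes stood at -1.12 (-2.30 to 0.06), so the interval no longer excluded 0. The Tfh genes had mean values of 1.88 in Treg (16 reads), 2.80 in Th1 (5 reads) and 4.65 in naive cells (14 reads), with a log2 ratio of Treg over naive of -1.31 (-2.43 to -0.16), or -0.93 (-2.06 to 0.22) relative to the table. Without Tox, the Tfh member with the most reads, the Tfh ratio to naive was -1.96 for Treg and -1.70 for Th1, against -0.73 for Th1 with it. The -1.70 rests on 1 Th1 read each in Tox2 and Sh2d1a. Without Tnfrsf9, which has the most reads of the Treg members, their Th1 ratio to naive was -2.42, resting on the 1 Th1 read of Socs2. The Th2 genes had 3.00 in Treg (17 reads), 2.52 in Th1 (3 reads) and 3.98 in naive cells (8 reads), a ratio of -0.41 (-1.70 to 1.01) for Treg over naive close to the table's own. The 3 intervals overlap, and no difference between the lineages' ratios was tested. For Treg over Th1 the ratios were -0.03, 0.25 and -0.58 for the Treg, Th2 and Tfh genes, with intervals that span 0. The ratio of the Treg genes turned to 0.29 at equal table totals, 0.36 with median-of-ratios scaling and 0.75 without Tnfrsf9, so it has no set direction, and that of the Th2 genes was 0.57 at equal table totals. Over all 8 members the ratio of Treg over naive was -1.11 (-1.77 to -0.45), or -0.74 (-1.39 to -0.07) relative to the table. The members were chosen with results of these data known, so this interval, which covers counting error only, is a description.

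**Figure D4:**
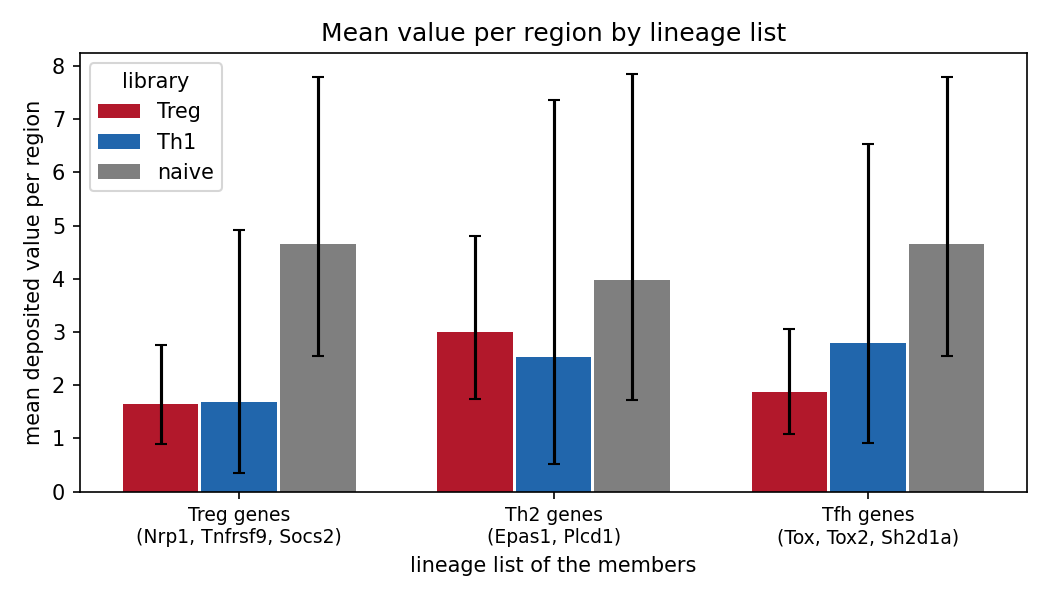
Mean deposited value per region in the Treg, Th1 and naive libraries for the Treg genes (3 regions), Th2 genes (2 regions) and Tfh genes (3 regions), with exact Poisson 95% intervals on the summed reads as bars (1 library each). The naive bar is the highest in each group, at 4.65, 3.98 and 4.65.

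Per 100 bp of region, Treg values ran from 0.472 in Socs2, through Tox2, Tnfrsf9, Sh2d1a, Epas1, Nrp1 and Tox, to 1.31 in Plcd1. Naive values per 100 bp ran from 1.05 in Epas1, through Tox, Tnfrsf9, Socs2, Plcd1, Tox2 and Nrp1, to 3.37 in Sh2d1a. In both libraries all 8 intervals shared a common range. No difference between regions was tested, so these orders, their ends included, are not read as differences. The members' median per 100 bp was 0.821 in Treg, 0.887 in Th1 and 1.94 in naive cells, against table medians of 1.02, 1.19 and 1.30.

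The density of other regions around the members varied, from 0 to 24 within 500 kb. Nrp1 and Tox had no other region within 500 kb, their nearest being in Pard3 at 987 kb and Nsmaf at 555 kb. The nearest region to Plcd1 was 19.5 kb away in Dlec1, among 24 within 500 kb. It had 5 reads in Treg, 0 in Th1 and 3 in naive cells. Sh2d1a had its nearest neighbour in Odz1 at 74.4 kb. Read patterns were common: between 28 (Nrp1) and 96 (Plcd1) other regions held exactly the same 3 read numbers as a member. The most alike by distance over the log2 values in the 3 libraries, all at distance 0, were introns of Rab6b, Aff3 and Mapkap1 for Epas1 and introns of Astn2, Myo16 and Plcl1 for Socs2.

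Taken as one list, lineage genes had a region about as often as all genes. The count was 4 of 22 Treg genes (18.2%), 3 of 14 Th2 genes (21.4%) and 4 of 13 Tfh genes (30.8%), together 11 of 49 (22.4%), beside 22.1% of all protein-coding genes. Apart from the 8 members these were Itgae, Il1rl1 and Pou2af1. Itgae, the integrin CD103 of tissue Treg cells, had 9 reads in Treg, 2 in Th1 and 5 in naive cells in exon 14, a log2 ratio of -0.58 for Treg over naive. Il1rl1, the interleukin-33 receptor, had 6, 2 and 4 reads in the same order in exon 10, a ratio of -0.78. Pou2af1, a transcriptional coactivator, was the only promoter among the 11 genes and had 7, 6 and 2 reads, with Th1 over naive at 2.09. Of the 3, Pou2af1 alone passed the 2-fold rule, higher in Th1 than in naive cells and lower in Treg than in Th1 cells.

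Relatives of the members, chosen after their values were seen, gave 14 regions in 7 genes of the neuropilin, TOX, SOCS and TNF receptor families. By the 2-fold rule 5 of the 14 were lower in Treg than in naive cells and 2 higher (1 region each of Tnfrsf11a and Tnfrsf1a), beside 22.2% and 8.33% of all regions. In Th1, 4 were lower than in naive cells, beside 29.0% of all regions, with unread regions counted. Those of Nrp2, Tox3 and Tnfrsf11a had 0 Th1 reads and, like Nrp1, are not read as lower. Only the Socs7 exon was read in both libraries, with 1 Th1 and 4 naive reads. Regions of Socs6, Tnfrsf1a and Tnfrsf11a were higher in Th1, beside 19.4% of all regions. They had 4, 2 and 5 Th1 reads and 3, 1 and 0 naive reads, so that of Tnfrsf11a was unread in naive cells. Nrp2, the other neuropilin, had 4 intronic regions with 2 to 9 Treg, 0 to 3 Th1 and 3 to 5 naive reads. Of these, 2 were lower in Treg than in naive cells. Regions of 1 gene could point opposite ways: introns of Tnfrsf11a, the receptor RANK, held 7 reads in Treg, 5 in Th1 and 0 in naive cells in 1 region and 1, 0 and 5 in another.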

How the data were processed

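Per the labels' protocols, sheared DNA was enriched for methylation with a MethylCap kit, 250 ng of it went into each library, and gel bands between 250 and 350 bp were cut out. Bowtie 0.12.7, FastQC and build mm9 are named, without roles, per the submitters' processing notes. The calling, choice and scaling of regions are not stated there. Each region has a deposited signal per library, with gene names and places assigned by the authors. From the values, 100% of the Treg, Th1 and naive signals were whole multiples of 1 constant per library (relative tolerance 1e-06), so reads were recovered by division. All per-sample columns matched a sample by name.

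With 1 library per population there is no replicate check and no test between populations. Ratios used a pseudocount of 0.5 and were called at 2-fold. Exact tests and intervals used scipy 1.17.1. The exact test with its adjustment was tried on simulated reads far deeper than the members' reads, and the intervals were not tried. That trial does not show how the test behaves at the members' depth. Benjamini-Hochberg adjustment covered all 10000 regions, at 0.05. All 8 genes were named, plus the other list genes with a region and, for the members with most and fewest reads, the 3 regions nearest in pattern. The members and lists were chosen with earlier results of these data known. List symbols were matched to gene labels with RefSeq symbols and synonyms (GRCm38.p6), from which no coordinate was taken. Some items are not reported here.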

Additional observations from a re-analysis of the deposited data

How the results depend on the processing

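Of 42 alternative counts of members, 13 moved by over 1.5 times or to or away from 0. Of 36 alternative lineage ratios, all within the counting interval of the reported ratio, 3 turned sign (the Treg genes in Treg over Th1) and 4 moved by over 1.5 times on the linear scale, all on leaving out Tnfrsf9 or Tox. The 5 members lower in Treg than in naive cells became 3 (Socs2, Tox2 and Sh2d1a) with median-of-ratios scaling (13.1% of regions) or equal table totals (12.3%). With at least 10 reads over the 3 libraries, 3 of the members left were lower (Nrp1, Tnfrsf9 and Tox2), beside 16.4% of the 8406 regions left. The 5 became 0 with a pseudocount of 5 (0.730%) and 0 by the adjusted exact test (0.0100%). The 5 lower in Th1 than in naive cells, Nrp1 with its 0 Th1 reads included, became 3 with equal table totals (21.3% of regions) or at least 10 reads (26.4%), and 0 with a pseudocount of 5 (2.21%) or by the adjusted exact test (0). The 1 higher in Treg than in Th1, again Nrp1, became 0 with a pseudocount of 5 (0.180%) and 0 by the adjusted exact test (0). For members lower in Th1 than in naive cells or higher in Treg than in Th1, the 0 of the exact test was fixed by depth. At 1.5-fold, 1 member was higher in Th1 than in naive cells (31.6% of regions) and 1 lower in Treg than in Th1 cells (35.2%). Over the table, regions lower in Treg than in naive cells numbered 2217 as deposited, 1233 at equal table totals, 1310 with median-of-ratios scaling, 3918 at 1.5-fold, 73 with a pseudocount of 5 and 1 by the exact test. Those higher numbered 833, 1518, 1339, 1607, 6 and 0. The pseudocount pulls ratios of low values towards 0 by construction, and the filter removes Socs2 and Sh2d1a. The 72 alternative ratios of single members, added after the data were examined, all stayed within their counting intervals. Those intervals all span 0 and are wide beside the rescalings, so this was fixed in advance and shows no stability. No paired analysis was possible because each population has 1 library, and leaving out a replicate was not possible for the same reason.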
